A study of Homo sapiens with 8 samples.

Results

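The MS4A genes MS4A1, MS4A2, MS4A3, MS4A4A, MS4A6A, MS4A7 and MS4A14 were examined for H3K4me3 and H3K27ac in HL-60 cells treated with or without ATRA. They are 7 of the 20098 protein-coding genes annotated on the chromosomes analyzed, and they were chosen by name, as the listed members of the gene cluster on the long arm of chromosome 11. Each gene was described by a window of the gene record with 10 kb on each side, by the length in bp of that window under peaks, and by peaks within 1 kb of the transcription start site (TSS) of its canonical transcript. Together the windows lay between chr11:59814060-60248225 on hg19.

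HL-60 is an established human leukemia cell line, labeled as promyelocytic by the submitters, and its cells differentiate towards granulocytes upon treatment with all-trans retinoic acid (ATRA). The ATRA group received 1 µM ATRA in ethanol for 4 days and the control group received the same volume of ethanol, and medium and additive were renewed at day 2 in both groups. Chromatin immunoprecipitation followed by sequencing (ChIP-seq) was performed with antibodies against H3K4me3, a mark of active promoters, and H3K27ac, a mark of active promoters and enhancers. Each mark and condition had 2 replicates, and 8 libraries were analyzed in all. The labels do not state whether replicates came from separate cultures, so the spread between them may be technical.

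MS4A genes encode small proteins that cross the cell membrane several times and sit in complexes with other receptors. Their expression divides the blood lineages: MS4A1 encodes CD20 of B cells, MS4A2 the beta chain of the high-affinity IgE receptor of mast cells and basophils, and MS4A3 a protein of granulocyte-monocyte precursors including promyelocytes. MS4A4A, MS4A6A and MS4A7 are best known from monocytes and macrophages, while the role of MS4A14 is less well described.

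MS4A3 carried H3K4me3 at its promoter in all 4 H3K4me3 libraries, and its marked stretch was longer in both ATRA libraries than in both control libraries. The other 6 genes had no H3K4me3 peak in their windows in any library. H3K27ac was longer in both ATRA libraries over MS4A7, a monocyte-type gene, and over MS4A14, whose window holds the same peaks. Of all protein-coding genes, 28.0% were longer in both ATRA libraries in H3K4me3 and 30.3% in H3K27ac. Over MS4A3, MS4A6A and MS4A4A the H3K27ac values of the ATRA and control libraries overlapped, and MS4A2 and MS4A1 had at most 1 short H3K27ac peak in 1 library. A peak shared by more cells and a stronger mark in each cell cannot be told apart in these bulk libraries.

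The sequences on which these results turn are shown here from the plus strand of hg19, 5′ to 3′, without any base of an annotated exon. Capitals mark matches, on either strand, to 6 short motifs: GAGGAA and GGAAGT of the ETS family that includes PU.1, TTNNGNAA of C/EBP factors, TGTGGT of RUNX factors, AGATAA of GATA factors and AGGTCA of retinoid receptors. The first sequence is the stretch of 172 bases before the first annotated exon of MS4A3 (chr11:59823888-59824059). It is shown because the promoter is the only H3K4me3 site in the windows of the 7 genes. The H3K4me3 stretches shared within each condition began downstream of these bases.
MS4A3 upstream: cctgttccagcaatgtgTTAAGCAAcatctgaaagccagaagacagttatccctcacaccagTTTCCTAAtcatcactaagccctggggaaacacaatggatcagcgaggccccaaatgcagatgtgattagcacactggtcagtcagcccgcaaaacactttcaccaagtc
The second is the stretch of 203 bases before the first annotated exon of MS4A7 (chr11:60145755-60145957), shown because it lies in the H3K27ac peak shared by both ATRA libraries.
MS4A7 upstream: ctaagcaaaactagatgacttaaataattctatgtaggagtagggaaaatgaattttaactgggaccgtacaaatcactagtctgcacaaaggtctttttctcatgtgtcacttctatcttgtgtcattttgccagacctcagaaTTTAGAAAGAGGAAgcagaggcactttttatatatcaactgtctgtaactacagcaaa
The third is a region of 258 bases upstream of MS4A7 (chr11:60131269-60131526), in an intron of the MS4A6E gene record, shown because it is the only H3K4me3 peak in the cluster outside MS4A3.
MS4A7 distal: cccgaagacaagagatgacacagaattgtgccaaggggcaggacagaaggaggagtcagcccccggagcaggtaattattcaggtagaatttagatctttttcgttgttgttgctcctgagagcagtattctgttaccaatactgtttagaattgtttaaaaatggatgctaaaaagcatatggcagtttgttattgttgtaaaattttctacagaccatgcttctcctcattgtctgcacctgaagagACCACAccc
The fourth is a run of 300 bases within an intron of MS4A7 (chr11:60156209-60156508), shown because it lies in the longest H3K27ac stretch shared by both ATRA libraries.
MS4A7 intron: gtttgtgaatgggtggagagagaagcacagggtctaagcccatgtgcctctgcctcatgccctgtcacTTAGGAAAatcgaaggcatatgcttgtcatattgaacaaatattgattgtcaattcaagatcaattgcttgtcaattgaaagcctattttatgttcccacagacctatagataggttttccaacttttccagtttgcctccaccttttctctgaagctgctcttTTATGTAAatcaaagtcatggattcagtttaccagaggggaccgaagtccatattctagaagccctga
The fifth is a run of 300 bases within the first part of the MS4A4A gene record (chr11:59962183-59962482), shown because it lies in the only H3K27ac stretch of the cluster shared by both control libraries.
MS4A4A intron: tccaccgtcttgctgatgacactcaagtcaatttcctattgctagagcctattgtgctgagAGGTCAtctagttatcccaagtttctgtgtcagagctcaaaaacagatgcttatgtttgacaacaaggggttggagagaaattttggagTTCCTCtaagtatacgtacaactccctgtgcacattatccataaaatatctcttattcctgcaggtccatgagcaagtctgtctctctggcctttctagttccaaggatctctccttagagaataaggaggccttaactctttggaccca

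The MS4A3 stretch held 2 matches to TTNNGNAA, 1 on each strand, and none to the other motifs. This motif occurred in 21.6% of the stretches at the same distance from the canonical TSS of all protein-coding genes. The MS4A7 stretch held 1 match to TTNNGNAA and 1 to GAGGAA, which lie side by side and occurred in 23.7% and 19.3% of such stretches. Among the regions away from promoters, the MS4A7 intron held 2 matches to TTNNGNAA, found in 51.8% of the centers of the H3K27ac peaks of ATRA replicate 2 at that length. The MS4A4A intron held 1 match to GAGGAA (29.0% of the peak centers) and 1 to AGGTCA (19.2%). The distal MS4A7 region held 1 match to TGTGGT, found in 16.9% of the peak centers at its length. The upstream, distal and intron sequences of MS4A7 also lay wholly under H3K27ac peaks of control replicate 2, so they are not particular to the ATRA libraries. Such short matches are a description of letters and not of binding.

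In the libraries as a whole, H3K27ac varied most. The H3K27ac peaks covered 64.8 and 86.1 Mb in the ATRA libraries, and 28.8 and 54.0 Mb in the control libraries. The H3K4me3 peaks covered 62.3 to 63.2 Mb in the ATRA libraries and 47.7 to 59.8 Mb in the control libraries. Control H3K27ac replicate 1 was the shortest of its mark and had 1 peak in the whole cluster. Genes that mark other cells were checked by peaks within 1 kb of the TSS. Of 5 promyelocyte genes (MPO, ELANE, AZU1, PRTN3 and CTSG), 3 and 3 had H3K4me3 there in the ATRA libraries and 2 and 2 in the control libraries. Of 5 monocyte or macrophage genes (CD14, CSF1R, CD163, MRC1 and MARCO), 1 had it in each ATRA library and 0 in each control library. CD14 had no peak of either mark at its TSS in any library. Of 5 mast cell or basophil genes (FCER1A, KIT, CPA3, HDC and TPSAB1), 1 had H3K4me3 at the TSS in each of the 4 libraries. At the TSS, H3K27ac was found at 4 and 4 promyelocyte genes in the ATRA libraries against 2 and 4 in the control libraries, at 1 and 2 monocyte or macrophage genes against 0 and 2, and at 2 and 0 mast cell or basophil genes against 0 and 1. Of 4 granulocyte genes (ITGAM, CYBB, FPR1 and CSF3R), H3K4me3 was at the TSS of 3 and 3 in the ATRA libraries and of 2 and 2 in the control libraries, and of 4 B cell genes (CD79A, PAX5, CD22 and BLK), 1 and 1 against 1 and 0. H3K27ac was at the TSS of 3 and 4 of these granulocyte genes against 1 and 2, and of 1 of these B cell genes in each library. The summed length under H3K27ac in the windows of each list was 27161 and 31617 bp in the ATRA libraries against 12714 and 17614 bp in the control libraries for the monocyte or macrophage genes, and 26077 and 23812 bp against 6389 and 9798 bp for the B cell genes. It was 53815 and 76079 bp against 8370 and 36560 bp for the granulocyte genes. For the promyelocyte genes it was 26473 and 29145 bp against 16425 and 28075 bp, and for the mast cell or basophil genes 17361 and 31210 bp against 7435 and 19581 bp. The sum was higher in both ATRA libraries for the monocyte or macrophage, B cell and granulocyte genes, though not for each gene. Both ATRA libraries also had more H3K27ac over the genome, and 30.3% of all protein-coding genes were higher in both. Most of the monocyte or macrophage sum was CSF1R (22615 and 25795 bp against 12273 and 15631 bp), while CD163 and MRC1 had 0 bp in every library. CD14 had 4546 and 5189 bp against 441 and 1167 bp, and MARCO had 0 and 633 bp against 0 and 816 bp. Most of the B cell sum was CD79A (18502 and 16945 bp against 6389 and 7974 bp), while PAX5 and BLK had 0 bp in every library. The summed length under H3K4me3 was 6267 and 5536 bp against 5390 and 5241 bp for the monocyte or macrophage genes, 13086 and 7543 bp against 10732 and 6149 bp for the B cell genes, 22122 and 16983 bp against 11226 and 8450 bp for the granulocyte genes, 27988 and 36301 bp against 25918 and 21665 bp for the promyelocyte genes and 4124 and 4170 bp against 4727 and 2099 bp for the mast cell or basophil genes. Most of the monocyte or macrophage sum in H3K4me3 was CD14 (4757 and 4735 bp against 5390 and 5241 bp), lower in both ATRA libraries. CSF1R went the other way, with 1510 and 801 bp against 0 and 0 bp. The part of cells of other lineages in the results was not tested.

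To see where the marks lay, the peaks of all libraries were placed on the cluster. The 434166 bp between the first and the last window held 5 H3K4me3 peaks in 2 separate regions. They held 38 H3K27ac peaks, of which 9 and 15 were in the ATRA libraries and 1 and 13 in the control libraries. Merged across libraries, these formed 22 regions, and 15 of them were seen in 1 library. No H3K27ac region was seen in all 4 libraries, 3 regions were longer in both ATRA libraries, and 0 were longer in both control libraries. These counts rest on single libraries: without control replicate 1, 3 regions were longer and 9 shorter in the ATRA libraries, without ATRA replicate 1 they were 10 and 0, without ATRA replicate 2 they were 6 and 1, and without control replicate 2 they were 4 and 0. In all, H3K27ac covered 15527 and 35681 bp of the cluster in the ATRA libraries and 416 and 26231 bp in the control libraries, and these ranges overlap.

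**Figure D1:**
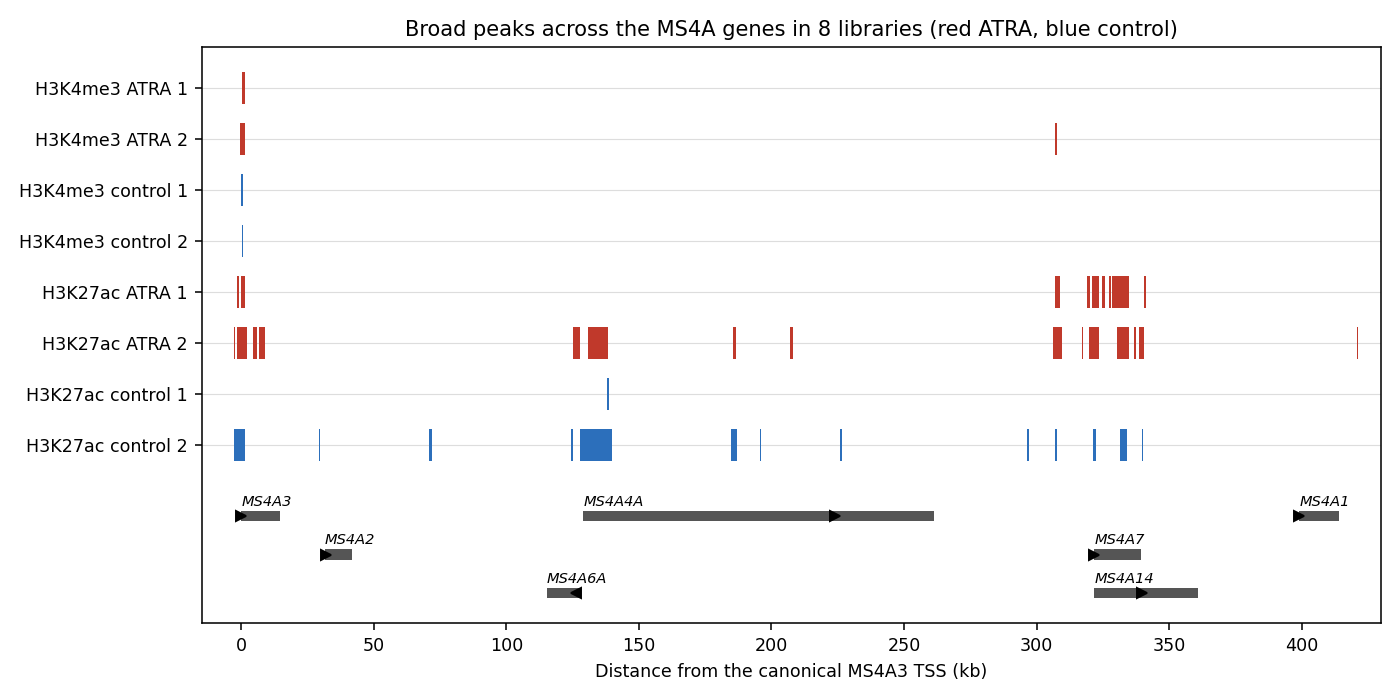
Broad peaks (boxes) of each library along the cluster, by distance in kb from the canonical MS4A3 TSS, with the ATRA libraries in red, the control libraries in blue, gene records as gray bars and canonical TSS as arrowheads pointing in the direction of transcription. H3K4me3 is found at MS4A3 and, in ATRA replicate 2 alone, upstream of MS4A7. H3K27ac lies at MS4A3, across the 5′ ends of MS4A6A and MS4A4A, and around MS4A7, with 1 peak in control replicate 1.

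MS4A3, the gene of the promyelocyte stage, was examined first (ENSG00000149516, chr11:59824060-59838588, plus strand, canonical TSS at 59824138). Its window had 1115 and 1930 bp under H3K4me3 in ATRA replicates 1 and 2, and 680 and 406 bp in control replicates 1 and 2. Both ATRA libraries were above both control libraries. The mean was 1522.5 ± 576 bp (SD, n = 2) in the ATRA-treated cells and 543 ± 194 bp (SD, n = 2) in the control cells, a difference of 979.5 bp or 2.84% of the window (two-sided exact permutation p = 0.333, the smallest that 2 libraries against 2 allow). Without ATRA replicate 2 the difference was 572 bp. Among the 7 genes 1 was higher in this sense, where 28.0% of all protein-coding genes were, and 0 were lower, where 2.64% were. Of the 13779 genes with a H3K4me3 peak in at least 1 library, 40.8% were higher and 3.85% lower. MS4A3 had a larger change, as a share of the window, than 83.3% of all genes, which include genes without a peak.

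Each library had 1 H3K4me3 peak at MS4A3, and its −log10 q was 12.8 and 21.4 in the ATRA libraries and 42.8 and 11.03 in the control libraries. The peaks therefore differed in length, with no order by condition in −log10 q. A stretch of 393 bp was shared by both control libraries (chr11:59824216-59824608), just inside the gene. A longer stretch of 1115 bp was shared by both ATRA libraries (chr11:59824259-59825373), which ran further into the gene. Both stretches lie downstream of the canonical TSS and overlap no annotated exon. With 1 peak in each library, the number of peaks did not differ.

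H3K27ac over MS4A3 covered 1659 and 7868 bp in the ATRA libraries and 0 and 4391 bp in the control libraries. The value of control replicate 2 lies between the values of the ATRA replicates, so the groups overlapped. The mean was 4763.5 ± 4390 bp (SD, n = 2) in the ATRA-treated cells and 2195.5 ± 3105 bp (SD, n = 2) in the control cells, a difference of 2568 bp (two-sided exact permutation p = 0.667). Without control replicate 1 the difference was 372.5 bp, and without ATRA replicate 2 it was −536.5 bp. H3K27ac lay within 1 kb of the TSS in 3 of the 4 libraries, all but control replicate 1. Both ATRA libraries shared 1286 bp from just before the TSS into the gene (chr11:59824097-59825382), all of which lay under the peak of control replicate 2. The peaks further within the gene, of 1486 and 2139 bp, were found in ATRA replicate 2 alone. In this window the −log10 q of the H3K27ac peaks was 3.84 and 5.61 in ATRA replicate 1. It was 0.830 to 2.18 in ATRA replicate 2 and 9.12 in control replicate 2.

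**Figure D2:**
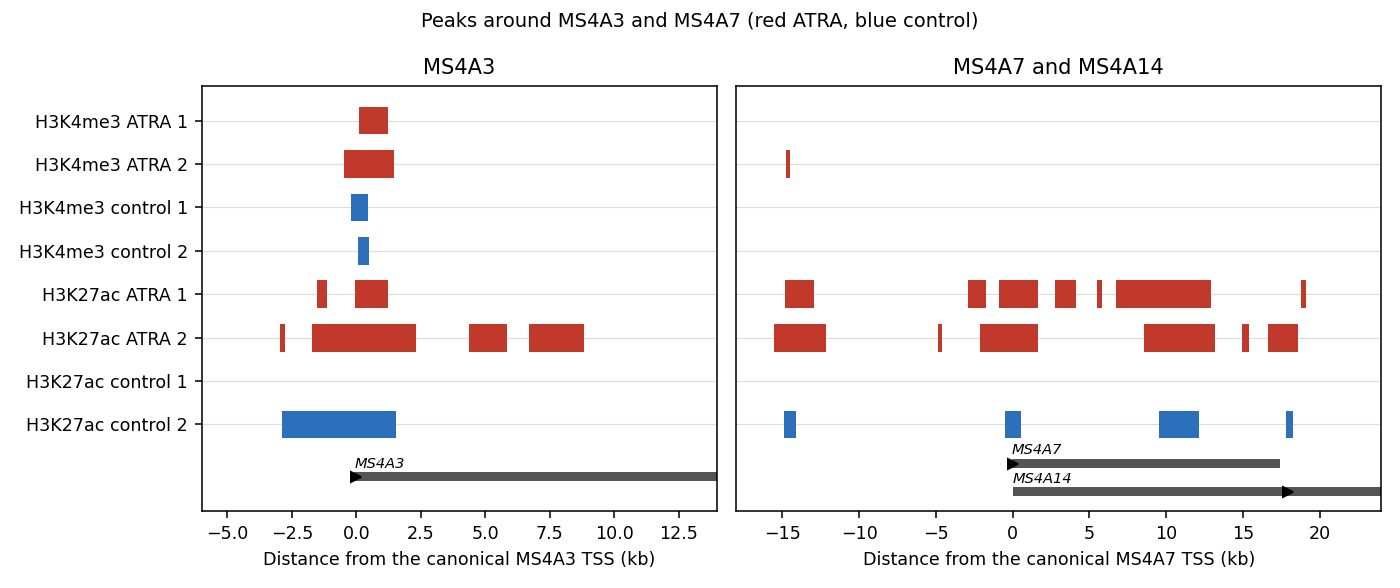
Broad peaks (boxes) of each library around MS4A3 and around MS4A7 with MS4A14, by distance in kb from the canonical TSS of MS4A3 and of MS4A7, with the ATRA libraries in red and the control libraries in blue. At MS4A3 the H3K4me3 peaks are longer in both ATRA libraries (1115 and 1930 bp against 680 and 406 bp), and at MS4A7 the H3K27ac peaks are longer in both ATRA libraries and absent from control replicate 1.

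The monocyte-type genes were then compared. MS4A7 (ENSG00000166927, chr11:60145958-60163424, plus strand, canonical TSS at 60146005) had no H3K4me3 in its window in any library. H3K27ac covered 11963 and 11126 bp of the window in the ATRA libraries and 0 and 3996 bp in the control libraries. Both ATRA values were above both control values and close to each other, while the control values were far apart. The mean was 11544.5 ± 592 bp (SD, n = 2) upon ATRA induction and 1998 ± 2826 bp (SD, n = 2) in the control cells. The difference was 9546.5 bp or 25.5% of the window (two-sided exact permutation p = 0.333). Of all protein-coding genes, which include genes without a peak, 98.1% had a smaller change as a share of the window. MS4A7 had the largest change of the 7 genes and was made a result of its own after seeing the data. Both ATRA libraries were above both control libraries in 30.3% of all genes. Without control replicate 1 the MS4A7 difference was 7548.5 bp. Each library's H3K27ac scaled to equal covered length in the genome gave 7000.48 bp.

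The peaks at MS4A7 were of low confidence. Their −log10 q was 1.03 to 5.10 in ATRA replicate 1, 0.716 to 1.84 in ATRA replicate 2 and 1.39 to 2.81 in control replicate 2, where the medians of all H3K27ac peaks were 1.81, 1.88 and 1.58. With only peaks of −log10 q of at least 5, a threshold that 12.8% to 16.9% of the H3K27ac peaks of a library pass, MS4A7 kept 1 peak in ATRA replicate 1 and none in ATRA replicate 2, and the call was lost, with a difference of 1269 bp.

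Around MS4A7, 3 H3K27ac regions were longer in both ATRA libraries. The first, upstream of the gene and outside its window (chr11:60130458-60133864), covered 1905 and 3407 bp in the ATRA libraries and 0 and 754 bp in the control libraries. It includes the 258 bp with H3K4me3 in ATRA replicate 2 (−log10 q of 32.5), whose sequence is printed above as MS4A7 distal and whose center is at −14608 bp from the MS4A7 TSS. The second, over the TSS (chr11:60143093-60147628), covered 3686 and 3782 bp against 0 and 1023 bp. The third, in the gene (chr11:60152712-60159191), covered 6220 and 4608 bp against 0 and 2570 bp. The 3 regions were picked because both ATRA values were above both control values, so this order follows from their choice. Control replicate 2 had the mark in each of them. Control replicate 1, with 1 H3K27ac peak in the whole cluster, had it in none. The window of MS4A7 held 6 further regions, 5 of them seen in 1 library, with 2057 and 2736 bp in the ATRA libraries and 0 and 403 bp in the control libraries, and in none of them did the conditions separate. The stretches shared by both ATRA libraries were 1905 bp in the first region, 394 and 2538 bp in the second and 4348 bp in the third.

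MS4A14 (ENSG00000166928, chr11:60146003-60185229, plus strand, canonical TSS at 60163932) starts beside the MS4A7 TSS in its longest transcripts. Its window holds 99.9% of the MS4A7 window, and its H3K27ac values were the same 11963, 11126, 0 and 3996 bp from the same peaks, so it is no second observation. Its own canonical TSS, just beyond the end of MS4A7, had H3K27ac within 1 kb in both ATRA libraries and in control replicate 2. There the 2001 bp around the TSS held 151 and 1689 bp in the ATRA libraries and 0 and 403 bp in the control libraries, and these overlapped. In ATRA replicate 1 the nearest peak began 850 bp after the TSS.

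MS4A6A (ENSG00000110077, chr11:59939488-59952139, minus strand, canonical TSS at 59950556) had 0 and 10255 bp under H3K27ac in the ATRA libraries and 14 and 10514 bp in the control libraries. MS4A4A (ENSG00000110079, chr11:59953130-60085553, plus strand, canonical TSS at 60048139) had 0 and 13080 bp in the ATRA libraries and 416 and 15261 bp in the control libraries. For both genes the replicates of number 2 were high and those of number 1 at or near 0, in either condition, so the groups overlapped. Without control replicate 1, both ATRA values of each gene lay below the remaining control value. The differences were −136.5 bp for MS4A6A and −1298.5 bp for MS4A4A (two-sided exact permutation p = 0.667 for each). The genes lie next to each other in opposite directions, and their windows share 19010 bp. The MS4A4A gene record also takes in the MS4A4E gene, and the canonical MS4A4A TSS lies far inside the record. A H3K27ac region over the canonical MS4A4E TSS (chr11:60009031-60010972) held 0 and 1282 bp in the ATRA libraries and 0 and 1942 bp in the control libraries.

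Most of the length under H3K27ac in both windows was 1 merged region across the 5′ ends of both gene records (chr11:59949112-59963840). It ran into both genes, with 0 and 10757 bp in the ATRA libraries and 416 and 12015 bp in the control libraries. Its center lay at −5920 bp from the canonical MS4A6A TSS, the nearest of the MS4A genes. In ATRA replicate 2 its peaks (chr11:59949112-59952097 and chr11:59954871-59962641) left the bases between the 5′ ends uncovered. The region held the single H3K27ac stretch of the cluster found in both control libraries, 416 bp (chr11:59962126-59962541). This stretch lay wholly under a peak of ATRA replicate 2 and not under one of ATRA replicate 1. The canonical MS4A6A TSS had H3K27ac within 1 kb in ATRA replicate 2 alone, and in control replicate 2 the nearest peak lay 1270 bp away. Of the 18 annotated MS4A6A TSS, 14 lay under a H3K27ac peak in ATRA replicate 2 and 5 in control replicate 2. The canonical MS4A4A TSS had no H3K27ac within 1 kb in any library, and the nearest peak was 1789 bp away in control replicate 2. Of the 13 annotated MS4A4A TSS, 0 lay under a H3K27ac peak in ATRA replicate 2 and 7 in control replicate 2.

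Over the windows of MS4A4A, MS4A6A and MS4A7 together (203533 bp), H3K27ac covered 11963 and 24206 bp in the ATRA libraries and 416 and 19257 bp in the control libraries. The groups overlapped, with a difference of 8248 bp (two-sided exact permutation p = 0.667), which was −1172.5 bp without control replicate 1. To set MS4A3 against these genes within each library, the percent of the monocyte-type windows under peaks was subtracted from the percent of the MS4A3 window. For H3K27ac this gave −1.07 and 10.9 percentage points in the ATRA libraries and −0.204 and 3.26 in the control libraries. These values overlapped (difference 3.38 percentage points, two-sided exact permutation p = 1). The difference was 1.65 percentage points without control replicate 1 and −2.60 without ATRA replicate 2. For H3K4me3, which the monocyte-type windows lack, it gave 3.23 and 5.59 against 1.97 and 1.18 percentage points, the change of MS4A3 itself. For neither mark was this value lower in both ATRA libraries than in both control libraries. For H3K27ac with flanks of 10 kb, the conditions did not separate in either direction. Without flanks they did, with a difference of 15.8 percentage points (two-sided exact permutation p = 0.333).

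**Figure D3:**
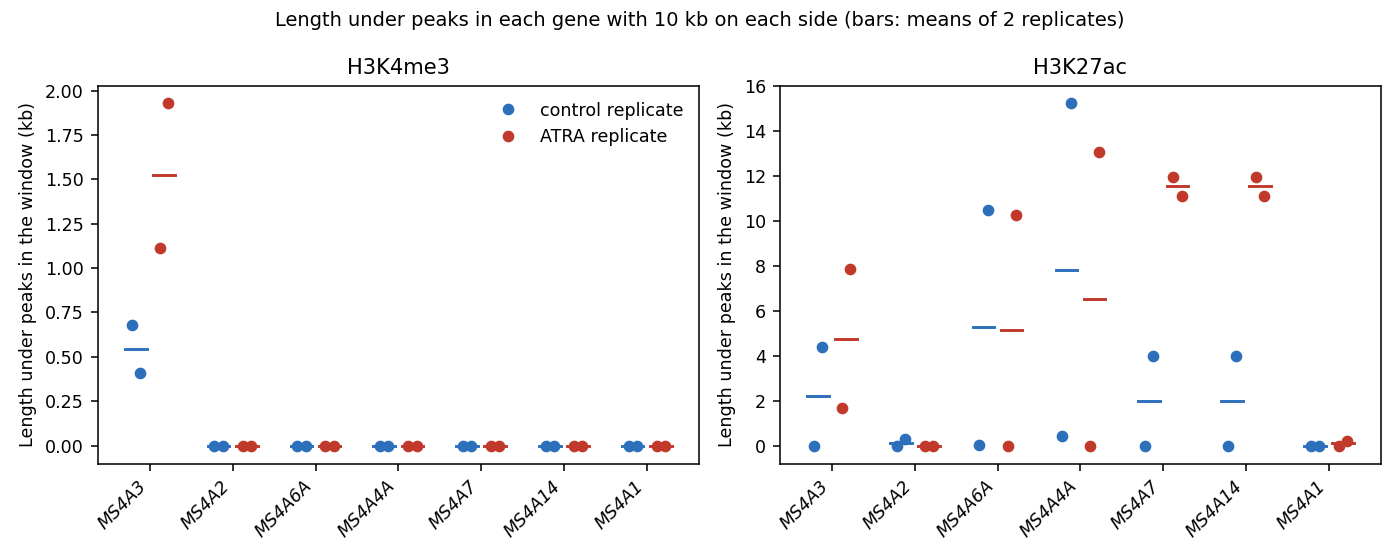
Length in kb under H3K4me3 and H3K27ac peaks in the window of each gene, with a point for each ATRA (red) and control (blue) library and a bar at the mean of the 2 replicates. The conditions separate for MS4A3 in H3K4me3 and for MS4A7 and MS4A14, which share their peaks, in H3K27ac, while for MS4A6A and MS4A4A each condition has 1 value near 0 and 1 above 10000 bp.

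MS4A2 and MS4A1, the genes of mast cells and B cells, were nearly free of both marks. MS4A2 (ENSG00000149534, chr11:59855734-59865940, plus strand) had 1 H3K27ac peak of 269 bp in control replicate 2, 2420 bp upstream of its canonical TSS. In the other H3K27ac libraries the nearest peak lay 23166 to 105989 bp away. MS4A1 (ENSG00000156738, chr11:60223319-60238225, plus strand) had 1 H3K27ac peak of 200 bp in ATRA replicate 2, 21600 bp from its canonical TSS. Its nearest H3K27ac peak in the other libraries lay 58194 to 260779 bp away, and its nearest H3K4me3 peak 91794 to 385188 bp away in the 4 H3K4me3 libraries. A window without a peak says that no peak was called there at the unknown depth of these libraries, and not that the mark is absent.

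The counts of the 7 genes were read against all genes. For H3K27ac, 2 genes (MS4A7 and MS4A14) were higher in both ATRA libraries, where 30.3% of all protein-coding genes were, and 0 were lower, where 2.86% were. Of the 14622 genes with a H3K27ac peak in at least 1 library, 41.6% were higher and 3.93% lower. Since MS4A7 and MS4A14 share their peaks, they count as 1 observation. The median change of the 7 genes was 0.286% of the window for H3K27ac and 0 for H3K4me3, and over all genes it was 0.527% and 0.223%. The H3K27ac changes of the 7 genes ran from −0.852% in MS4A4A to 25.5% in MS4A7. At the TSS, 1 gene (MS4A3) had H3K4me3 in both ATRA libraries and 1 (MS4A3) in both control libraries, against 54.2% and 53.3% of all genes. H3K27ac was at the TSS of 3 genes (MS4A3, MS4A7 and MS4A14) in both ATRA libraries and of 0 in both control libraries, against 42.8% and 36.2% of all genes. In control replicate 2 taken alone, the same 3 genes had it.

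**Figure D4:**
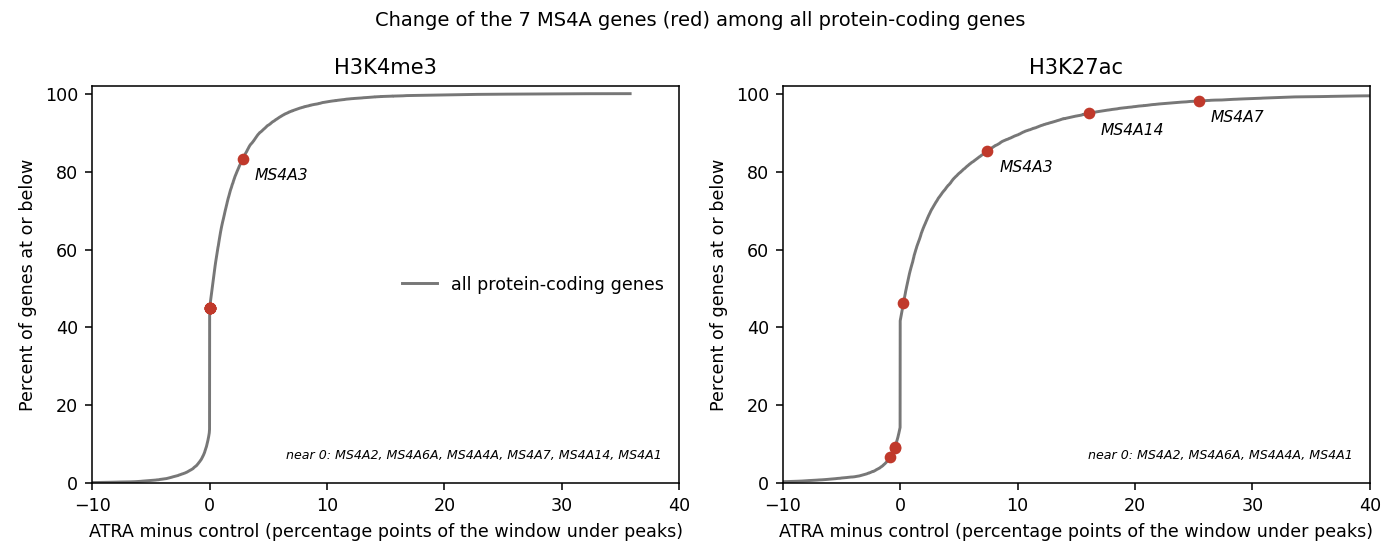
Cumulative share of all protein-coding genes (gray line, in percent) by the change of the window under peaks, ATRA minus control in percentage points, with the 7 MS4A genes as red points. The few genes beyond the ends of the axis are not drawn. For H3K27ac MS4A7 lies above 98.1% of all genes, while 4 of the 7 genes lie near 0.

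Other genes of the cluster and its neighbors were listed for comparison. Of 9 other MS4A genes, 5 (MS4A5, MS4A8, MS4A10, MS4A12 and MS4A18) had no peak of either mark in their windows. MS4A6E, whose gene record spans MS4A7, was higher in H3K27ac in both ATRA libraries (13868 and 14533 bp against 0 and 5359 bp), and it holds the peaks of MS4A7. MS4A4E had 0 and 6181 bp against 416 and 8345 bp, MS4A13 had 0 and 1162 bp against 0 and 284 bp, and MS4A15 had 0 and 200 bp against 0 and 0 bp. On the MS4A3 side, OOSP2 had H3K4me3 from the MS4A3 promoter peaks and OOSP4B had no peak of either mark. On the other side, beyond the last MS4A gene, CCDC86 was marked in all 8 libraries. There H3K4me3 was shorter upon ATRA induction (8485 and 5865 bp against 10763 and 9363 bp) and H3K27ac longer (6037 and 9335 bp against 2848 and 3123 bp). PTGDR2, which shares most of that window, had the same directions. The CCDC86 values separated by condition in opposite directions for the 2 marks.

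MS4A3, which had a peak in 7 of the 8 libraries, was the only one of the 7 genes marked in enough libraries to look for genes with a like profile. Over the 8 libraries, as percent of the window under peaks, the nearest genes outside the cluster were GGT1 on chromosome 22 (Euclidean distance 5.88 percentage points), SAMSN1 on chromosome 21 (6.33) and ENSG00000286015 on chromosome 1 (6.68). GGT1 had 1.66 and 1.63% of its window under H3K4me3 in the ATRA libraries and 1.87 and 0.369% in the control libraries, and 8.17 and 20.8% against 0 and 12.005% under H3K27ac. The likeness thus rests mainly on the H3K27ac libraries, where both genes were highest in ATRA replicate 2 and at 0 in control replicate 1.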

How the data were processed

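ChIP-seq peaks of H3K4me3 and H3K27ac from HL-60 cells treated with ATRA or ethanol were analyzed, with 2 libraries for each mark and condition. For each library, the authors trimmed adapters, used Bowtie for alignment to hg19, and ran MACS2 in its broad mode without a fragment model. They deposited peak positions, a fold enrichment and the −log10 of a p-value and a q-value. The deposited −log10 q was used as a filter and a description. The other 2 columns hold values such measures cannot take and were not used. Reads per peak are unknown, so no counting interval was given.

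Genes came from GENCODE release 44 mapped to GRCh37, the same build, and 0 peaks ran past a chromosome end. A gene was called higher or lower where both ATRA libraries lay above or below both control libraries in bp under peaks. Over libraries, two-sided exact permutation tests were used, and 2 against 2 cannot go below 0.333. Sequences were read from GRCh37. The genes named were the 7 members, the other MS4A genes, the 2 nearest other genes on each side, and the 3 genes most like any member with a peak in at least 4 libraries. Some marker genes are not reported here. The members and lists were chosen with earlier results of these data known. Alternatives were the flank, peak threshold and length, equal peak numbers, scaling, the TSS definition, replicate numbers as a block and leaving out each library. MS4A7 as a result of its own, the window of the canonical transcript and the region counts without each library were added after seeing the data. Python 3.11.15, numpy 2.4.6 and matplotlib 3.10.9 were used.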

Additional observations from a re-analysis of the deposited data

How the results depend on the processing

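Of 210 values recomputed under the alternatives, 185 stayed within the spread between replicates or near the count, 25 moved further and 0 called values reversed. Part of the 185 could hardly differ: the block left each mean difference unchanged, and missing H3K4me3 peaks gave 0 under nearly every setting. A change of sign within the wide spread counted as staying, as for the monocyte-type difference in H3K27ac (8248 to −1172.5 bp without control replicate 1). Reversal was counted only where the conditions had separated, so these counts do not measure robustness. With peaks of −log10 q of at least 5, the genes higher in H3K27ac fell to 0, the genes with H3K27ac at the TSS in both ATRA libraries to 0, the MS4A7 difference to 1269 bp, the MS4A3 difference in H3K27ac to −1552.5 bp and its contrast with the monocyte-type genes to −5.12 percentage points. With peaks of at least 1 kb, the MS4A3 difference in H3K4me3 was 1522.5 bp and its contrast 4.41 percentage points. By number of peaks, the MS4A3 difference in H3K4me3, its contrast and the genes higher in H3K4me3 were 0. For H3K27ac, 3 genes were higher by number of peaks, and the MS4A3 difference was 2.5 peaks (two-sided exact permutation p = 0.333). Without flanks the contrast was 5.83 (H3K4me3) and 15.8 (H3K27ac) percentage points and the MS4A7 difference 6972.5 bp, and with flanks of 25 kb the H3K4me3 contrast was 1.47 percentage points, the MS4A7 difference 11668 bp, and H3K4me3 at MS4A7 and the monocyte-type genes 129 bp. Scaling to equal covered length gave 7000.48 bp for MS4A7. Peaks over the TSS base itself left 0 genes with H3K4me3 in both ATRA and 0 in both control libraries. The causes of these changes were not tested.

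Leaving out each library in turn gave 2 to 4 genes higher and 0 to 3 lower in H3K27ac, and 0 to 3 genes with H3K27ac at the TSS in the control libraries. The 4 higher came without ATRA replicate 1, the 3 lower without control replicate 1, and 2 lower without ATRA replicate 2. With positions near 2 or more genes left out, the monocyte-type difference in H3K27ac was −1162 bp. The H3K27ac contrast, which separated no groups with flanks of 10 kb, turned to −0.164 percentage points with flanks of 25 kb. It was −0.299 with canonical transcripts and −2.60 without ATRA replicate 2. Without flanks (15.8 percentage points) and by number of peaks (5.77 peaks per 100 kb), it was higher in both ATRA libraries. The two-sided exact permutation p was 0.333 for each. Libraries with the same replicate number share only that number in the labels. Their deviations correlated at 0.255 for H3K4me3 and 0.633 for H3K27ac over all gene windows (Pearson). For H3K27ac, replicate 2 covered more of the genome than replicate 1 in both conditions. This was 86.1 against 64.8 Mb with ATRA and 54.0 against 28.8 Mb in the control. The cause of the correlation was not tested. With the replicate number as a block, 3 genes were higher and 2 were lower in H3K27ac, against 2 and 0 without it. The calls that changed were MS4A3, higher by 1659 bp within number 1 and 3477 bp within number 2, MS4A6A (−14 and −259 bp) and MS4A4A (−416 and −2181 bp). The MS4A7 difference was 11963 bp within number 1 and 7130 bp within number 2. The peak lists hold no depth, and 2 replicates limit every comparison.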
